A study of Mus musculus with 15 samples.

Results

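The genes described here are those of the AMPA receptor and of proteins that travel with it: the subunit genes *Gria1*, *Gria2* and *Gria4*, the TARP genes *Cacng2*, *Cacng3*, *Cacng4*, *Cacng5*, *Cacng7* and *Cacng8*, and *Syndig1*. These 10 genes were found by symbol, all 10 of them in a table of 26835 genes for the *Lhx6* comparison and in a table of 25714 genes for the *Mtg8* comparison, and all 10 passed the filter on low values in both. They were chosen by their measured values in these same libraries, with the differences between mutant and control already known, so their values, and the number called by a test across all genes, are a description and not evidence of a difference. *Gria3*, an X-linked gene, was not analysed here, because the study filtered sex-linked genes.

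The cells were interneurons on their way through the embryonic cortex, born in the medial ganglionic eminence (MGE), the ventral forebrain zone that makes somatostatin and parvalbumin interneurons. In all 15 libraries the embryos carried Nkx2-1-Cre, which recombines in MGE progenitors and their progeny, and the R26R-YFP fl/fl reporter that it switches on. Each library came from the YFP+ cells of 1 cortex, taken from a mouse embryo at E14.5 on a mixed C57BL/6/CBA background. The *Lhx6* comparison set 4 controls (Lhx6+/+) against 5 mutants (Lhx6-/-), and the *Mtg8* comparison set 3 controls (Mtg8+/+) against 3 libraries labelled *Mtg8* mutant (Mtg8-/-). Both alleles are germline, carried by every cell of the embryo and not by the sorted cells alone. The study's methods describe mutants and controls as littermates. Of the *Lhx6* mutants, however, mutant 6 alone shares the leading code of its library name with a control, and of the libraries labelled *Mtg8* mutant, mutant 2 alone does. What that code stands for is not given in the sources used here. The *Mtg8* allele is a LacZ knock-in. The comparisons were made to find genes that the transcription factor LHX6 and the co-repressor MTG8 might both regulate in these cells.

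AMPA receptors are the glutamate-gated channels that carry most fast excitatory transmission. They are assembled from GluA subunits encoded by the *Gria* genes, and the GluA2 subunit, whose pore codon is edited in the RNA, makes the channel nearly impermeable to calcium. TARPs, a family of auxiliary subunits whose best known member is stargazin (*Cacng2*), bring receptors to the surface and slow their closing, and SYNDIG1 is a transmembrane protein that associates with AMPA receptors at developing excitatory synapses. Adult parvalbumin interneurons are known for receptors poor in GluA2.

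The region just upstream of a RefSeq start of 3 of these genes is shown because *Syndig1* and *Gria4* were lower in *Lhx6* mutants while *Gria2*, a subunit of the same channel, overlapped with the controls. Each run is the 250 bases before the RefSeq gene start in GRCm38.p6, read 5′ to 3′ on the gene's strand, with CG dinucleotides in capitals. The *Syndig1* window is chr2:149830533-149830782 on the plus strand, the *Gria4* window is chr9:4796235-4796484 on the minus strand, and the *Gria2* window is chr3:80802836-80803085 on the minus strand. The windows of *Gria4* and *Gria2* abut the gene starts of the deposited tables, whereas the *Syndig1* window lies inside the gene as those tables bound it, since their annotation starts *Syndig1* further upstream.
Syndig1: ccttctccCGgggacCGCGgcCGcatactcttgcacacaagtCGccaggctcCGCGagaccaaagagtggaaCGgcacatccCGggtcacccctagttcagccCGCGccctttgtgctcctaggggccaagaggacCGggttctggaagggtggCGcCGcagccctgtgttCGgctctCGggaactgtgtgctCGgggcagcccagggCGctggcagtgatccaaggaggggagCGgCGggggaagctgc
Gria4: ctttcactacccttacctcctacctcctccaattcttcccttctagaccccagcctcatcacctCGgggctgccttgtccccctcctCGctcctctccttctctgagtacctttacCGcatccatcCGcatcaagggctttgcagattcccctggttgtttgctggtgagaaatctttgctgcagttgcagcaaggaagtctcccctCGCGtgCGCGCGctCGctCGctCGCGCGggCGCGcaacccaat
Gria2: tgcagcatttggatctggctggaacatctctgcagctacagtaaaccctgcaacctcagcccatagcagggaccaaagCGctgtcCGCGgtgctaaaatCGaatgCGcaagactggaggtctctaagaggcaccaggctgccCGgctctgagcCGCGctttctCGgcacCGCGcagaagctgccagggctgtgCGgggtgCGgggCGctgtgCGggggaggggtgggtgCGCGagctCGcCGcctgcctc
All 3 windows were rich in CG, with 20 dinucleotides in *Syndig1*, 16 in *Gria4* and 19 in *Gria2*, against a median of 6 over the 32851 RefSeq windows of the same length. Their GC content was 68.0%, 58.8% and 64.8%, against a median of 52.4%. The letters TAATTA, a homeodomain core that reads the same on both strands, occurred in 0 of the 9 windows that RefSeq gave for 8 of the 10 genes. Of all windows, 4.84% held them. A match would describe letters only, and its absence covers this window alone. *Gria1* and *Cacng4* had no window, and those of *Cacng2* and *Cacng3* lay inside annotated exons and are not printed.

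Libraries held 12218422 to 22053032 counted reads. *Lhx6* itself was far lower in every *Lhx6* mutant, at 236 to 495 normalized counts against 5812 to 8441 in controls. *Runx1t1*, the gene of MTG8, was higher and not lower in the libraries labelled *Mtg8* mutant, at 12250 to 13934 against 7938 to 10265, and for that reason the label alone names them wherever a direction is given. In *Lhx6* mutants *Runx1t1* was higher as well, at 12227 to 26527 against 6394 to 8945 in their controls. MGE interneuron markers were abundant in all groups, with a summed level of 33408 to 89793 over 15 genes. That sum is not a measure of MGE identity alone, since it includes *Gad1*, *Gad2*, *Dlx1*, *Dlx2*, *Dlx5* and *Dlx6*. The libraries carry dated or undated names: all 4 *Lhx6* controls and mutant 6 are undated and the other 4 *Lhx6* mutants are dated, so most of the *Lhx6* contrast cannot be told apart from name style. In the *Mtg8* table controls 1 and 2 and mutant 2 are dated, and control 4 and mutants 3 and 4 are undated. Some markers of other cells were abundant too. The pyramidal marker *Neurod6*, the highest of the 11 listed, averaged 9961 normalized counts in *Lhx6* controls and 7387 in *Mtg8* controls. Some of the other pyramidal markers differed more between these groups, such as *Emx1* (1027 and 57.6) and *Fezf2* (1124 and 102). Others were alike in both, such as *Slc17a7*, which was low (32.3 and 28.6). The erythroid marker *Hba-a1* averaged 7926 and 6479 in the same groups. The part of these cells in the levels below was not tested. In sorted bulk material, fewer cells of a type and less RNA per cell cannot be told apart.

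Already at E14.5 most of these genes were transcribed, and *Gria1* stood above the others. Levels between genes are compared here per length, as normalized count per kilobase of the gene's exons. In *Lhx6* controls *Gria1* was at 1365 ± 282 per kb (SD, n = 4) and *Syndig1* followed at 571 ± 77.0. The type I TARPs *Cacng4* (435 ± 77.7) and *Cacng3* (329 ± 55.9) came next, then *Gria4* at 280 ± 36.8, *Cacng2* at 223 ± 10.9 and *Gria2* at 182 ± 21.9. *Cacng8*, a type I TARP prominent in the hippocampus later in life, was at 98.0 ± 25.9 per kb, and the type II TARPs *Cacng7* and *Cacng5* were near the bottom at 16.1 ± 4.99 and 9.51 ± 6.71. Ranges of neighbours in this order did not overlap between *Gria1* and *Syndig1*, between *Cacng2* and *Gria2*, between *Gria2* and *Cacng8* and between *Cacng8* and *Cacng7*, and all other neighbours overlapped. *Gria2*, whose subunit closes the pore to calcium, was thus below both *Gria1* and *Gria4* per kb of exon.

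In *Mtg8* controls *Gria1* again led, at 3378 ± 393 per kb (SD, n = 3). The order below it was *Cacng3* (721 ± 60.6), *Syndig1* (649 ± 78.3), *Gria4* (519 ± 104), *Cacng4* (396 ± 80.4), *Gria2* (179 ± 26.6), *Cacng2* (113 ± 11.2), *Cacng8* (51.1 ± 6.05), *Cacng5* (6.30 ± 4.28) and *Cacng7* (3.65 ± 1.89). Ranges did not overlap between *Gria1* and *Cacng3*, each of *Cacng4*, *Gria2*, *Cacng2* and *Cacng8* stood clear of the next in that order, and all other neighbours overlapped. The 2 tables were normalized separately, so their levels stand side by side and were not tested against each other. These levels lean on the length used. With the longest coding transcript, tried after the data were seen, *Gria2* moved to 273 per kb in *Lhx6* controls, above *Cacng2* (223) and nearer to *Gria4* (324), and in *Mtg8* controls *Syndig1* (769) passed *Cacng3* (721). With that length the ranges of *Gria2* (234 to 307) and *Gria4* (272 to 369) overlapped in *Lhx6* controls, so their order there depends on the length.

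**Figure D1:**
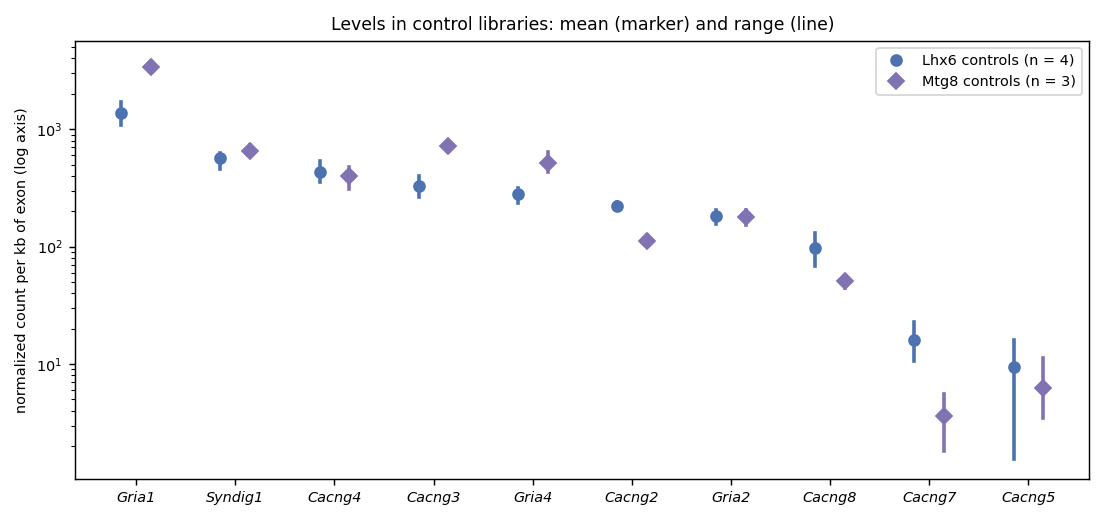
Levels of the 10 genes in control libraries, as normalized count per kb of exon on a log axis, with the mean as a marker and the range over libraries as a line, for 4 *Lhx6* controls (circles) and 3 *Mtg8* controls (diamonds). *Gria1* is highest in both sets, at 1365 and 3378 per kb, and *Cacng5* and *Cacng7* are lowest.

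In *Lhx6* mutants 4 of these genes were lower than in controls: *Cacng3*, *Syndig1*, *Gria1* and *Gria4*. The groups did not overlap for these 4 and overlapped for the other 6, and limma called the same 4 of 10 lower and 0 higher at an adjusted p under 0.05. Over all 16727 genes tested, 0.682% were called lower and 1.03% higher, and 3.03% lay wholly below the controls and 3.19% wholly above them. Since the genes were picked on this contrast, nothing is read from the count. DESeq2 called the same 4 lower and *Cacng2* higher, against 1.57% and 3.05% of all genes, and edgeR called the same 4 lower and 0 higher, against 0.664% and 1.01%. At an unadjusted p under 0.05 limma listed 2 as higher, *Cacng2* and *Cacng4*, and the same 4 as lower, against 7.11% and 5.63% of all genes.

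*Cacng3*, a type I TARP (chr7:122670492-122769393, plus strand, ENSMUSG00000066189.9), was nearly absent from *Lhx6* mutants. Controls 1 to 4 held 1105, 730 (control 2), 940 and 876 normalized counts, and mutants 1, 2, 3, 5 and 6 held 2.47, 11.1, 31.7, 35.8 and 16.1. Every mutant was thus far below the lowest control, with mutant 1, where the value stands for 2 reads, the lowest of all. The mutant mean was 2.13% of the control mean. The fitted log2 fold change, here and for the other genes a difference of mean log2(normalized count + 1) and not the log of that ratio, was −5.87 ± 0.56 (SE). By name style the difference was −5.72 for undated mutant 6 and −5.91 for the dated mutants.

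*Syndig1* (chr2:149829211-150004392, plus strand, ENSMUSG00000074736.10) showed the next largest difference. Controls 1 to 4 held 1539, 1130.0, 1520.0 and 1438 normalized counts, and mutants 1, 2, 3, 5 and 6 held 118, 152, 200.2, 232 and 146. The highest mutant was well below the lowest control, and the mutant mean was 12.06% of the control mean. The log2 fold change was −3.08 ± 0.21 (SE), with −3.25 for undated mutant 6 and −3.03 for the dated mutants. *Syndig1* shares 406 exon bases with the opposite-strand lncRNA C530025M09Rik, which reached at most 52.5 normalized counts in a library of this table. Strand use in the counting is not given in the sources used here.

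*Gria1*, the most abundant subunit gene here (chr11:57011387-57330244, plus strand, ENSMUSG00000020524.16), was lower in every *Lhx6* mutant. Controls 1 to 4 held 10272, 7120.2, 9023 and 6583 normalized counts against 3315, 2101, 3926, 2986 and 2916 in mutants 1, 2, 3, 5 and 6. The lowest control was above the highest mutant, and the mutant mean was 37.0% of the control mean. The log2 fold change was −1.44 ± 0.18 (SE), at −1.48 for undated mutant 6 and −1.43 for the dated mutants. With name style as a covariate, which leaves mutant 6 against the controls, *Gria1* was not called.

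*Gria4*, whose subunit is typical of early and interneuron receptors (chr9:4417896-4796234, minus strand, ENSMUSG00000025892.16), was also lower, by less. Controls 1 to 4 held 2009, 1482, 1885 and 1680.4 normalized counts, and mutants 1, 2, 3, 5 and 6 held 1231, 908, 1051, 897 and 527. Mutant 6 was lowest and mutant 1 came nearest to the controls. The mutant mean was 52.3% of the control mean, with a log2 fold change of −0.98 ± 0.22 (SE), −1.73 for mutant 6 and −0.79 for the dated mutants. *Gria4* was not called once any 1 of the 4 controls, mutant 2 or mutant 5 was left out, although its fold change then stayed between −1.10 and −0.79 over all libraries left out in turn. Nor was it called by limma without the mean-variance trend. A miRNA gene, Gm23811, shares 19 exon bases with it and was at 1.24 normalized counts or less in this table.

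*Gria2* (chr3:80681450-80802835, minus strand, ENSMUSG00000033981.14) did not separate the groups. Controls 1 to 4 held 3028, 2706, 3187 and 2422 normalized counts, and mutants 1, 2, 3, 5 and 6 held 3392, 2343, 1592, 2842 and 1865. Mutant 1 was above all controls and mutants 2, 3 and 6 were below them. The log2 fold change was −0.28 ± 0.20 (SE), and the mutant mean was 84.9% of the control mean. By name style the difference was −0.60 for undated mutant 6 and −0.20 for the dated mutants. With single libraries left out the fold change lay between −0.42 and −0.15.

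The other type I TARPs, *Cacng2*, *Cacng4* and *Cacng8*, were higher in most *Lhx6* mutants and overlapped with controls through mutant 6. For *Cacng2*, the stargazin gene (chr15:77991748-78120028, minus strand), controls 1 to 4 held 1229, 1199, 1312 and 1174 normalized counts and mutants 1, 2, 3, 5 and 6 held 2161, 2104, 2392, 2007 and 1101. The 4 dated mutants were all above every control, and undated mutant 6 was below every control. The log2 fold change was 0.62 ± 0.20 (SE), but 0.82 for the dated mutants and −0.16 for mutant 6, so its direction turned with name style. Without mutant 6 limma called *Cacng2* higher. The opposite-strand lncRNA A730060N03Rik shares 323 exon bases with *Cacng2* and reached 84.8 normalized counts at most.

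For *Cacng4* (chr11:107732357-107794557, minus strand) controls 1 to 4 held 1276, 1422, 1920 and 1606 normalized counts, and mutants 1, 2, 3, 5 and 6 held 3372, 2419, 2038, 2550 and 1613. The dated mutants again lay above every control and mutant 6 lay among them. The log2 fold change was 0.60 ± 0.20 (SE), 0.73 for the dated mutants and 0.07 for mutant 6. *Cacng8* (chr7:3390683-3415648, plus strand) was at 212, 160 (control 2), 305 and 242 normalized counts in controls 1 to 4 and at 316, 308, 550 (mutant 3), 385 and 199 in mutants 1, 2, 3, 5 and 6. Its log2 fold change was 0.57 ± 0.28 (SE), 0.76 for the dated mutants and −0.17 for mutant 6. In all 3 genes every dated mutant was above every control and the undated mutant was not.

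The type II TARPs were low and their groups overlapped. *Cacng5* (chr11:107874605-107915055, minus strand) ranged from 5.99 to 62.0 normalized counts in *Lhx6* controls and from 23.5 to 66.8 in mutants, a log2 fold change of 0.45 ± 0.62 (SE). That direction rested on control 4, the lowest library, without which it was −0.22. *Cacng7* (chr7:3332955-3368221, plus strand) ranged from 26.0 to 55.3 in controls and from 34.7 to 118 in mutants, a log2 fold change of 0.41 ± 0.41 (SE). Without mutant 1, the highest library, it was 0.11. *Cacng5* and *Cacng7* were both below 0 in mutant 6 against the controls, at −0.19 and −0.13.

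**Figure D2:**
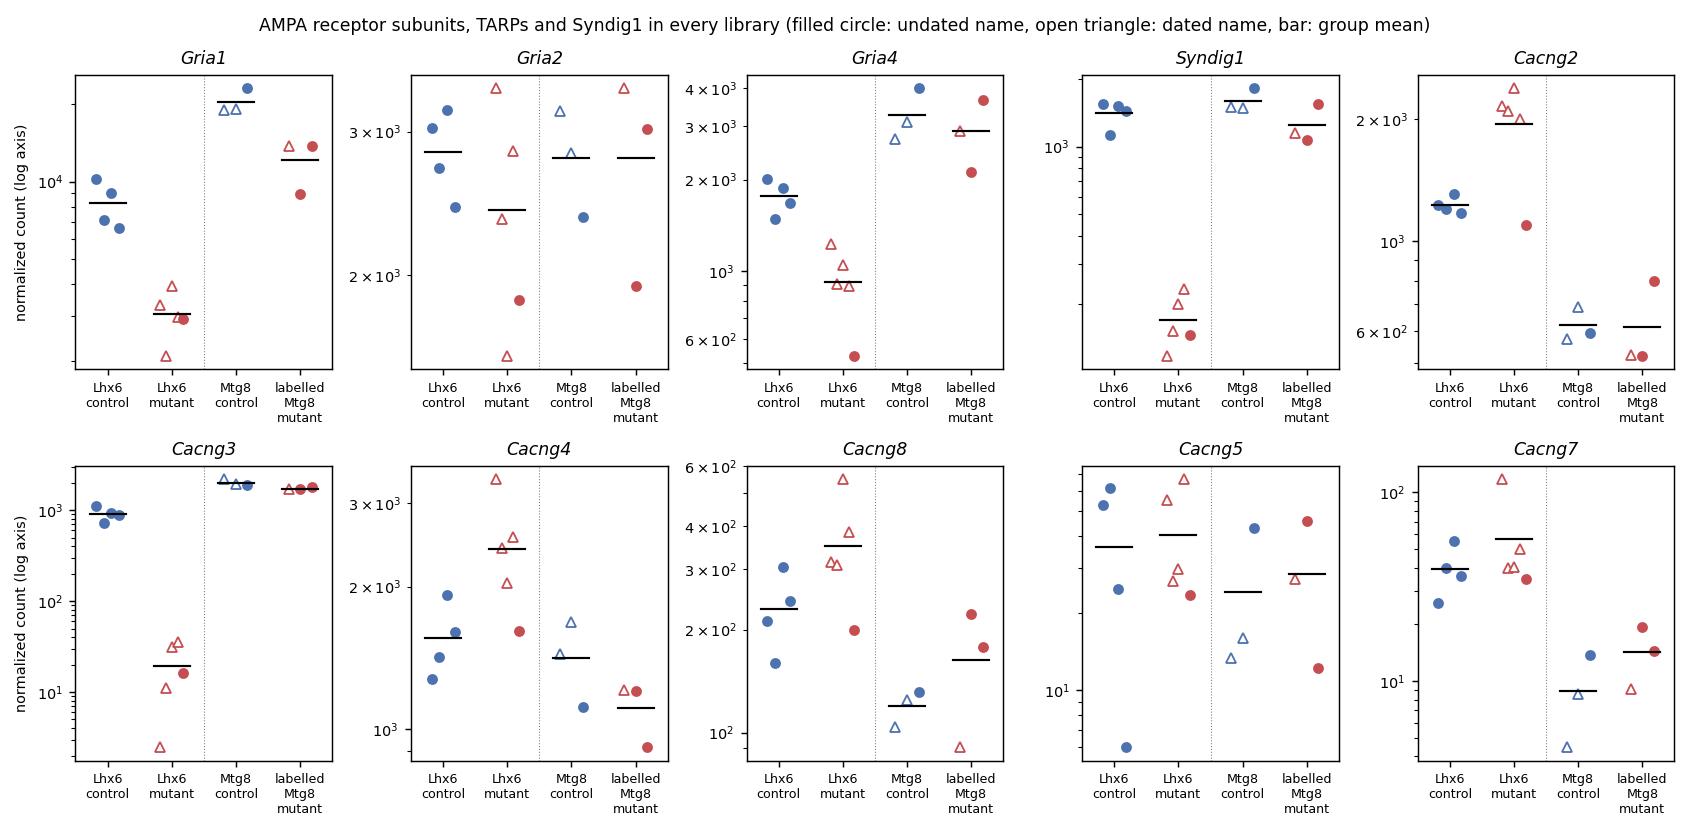
Normalized count of each gene in each of 15 libraries on log axes, with the group mean as a bar, filled circles for undated and open triangles for dated library names, and the separately normalized tables parted by a dotted line. *Cacng3*, *Syndig1*, *Gria1* and *Gria4* lie below the controls in all 5 *Lhx6* mutants, and undated mutant 6 parts from the dated mutants in *Cacng2*, *Cacng4* and *Cacng8*.

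Markers of other cells moved between the *Lhx6* groups as well. The summed level of the 6 measured markers of interneurons from the caudal ganglionic eminence (CGE) was 2633 to 3365 in controls and 4123 to 5479 in mutants, with 2 genes wholly higher (*Nr2f2* and *Adarb2*) and 1 wholly lower (*Htr3a*). MGE interneuron markers summed to 53837 to 65955 in controls and 33408 to 55825 in mutants. Of the 15, 5 were wholly lower, *Lhx6* and *Sst* among them, and 2 wholly higher (*Dlx5* and *Dlx6*). Pyramidal neuron markers (15416 to 21329 against 12371 to 16941) and progenitor markers (10259 to 12351 against 9088 to 18912) overlapped in sum, with 1 of 11 pyramidal genes wholly lower (*Fezf2*) and 1 of 10 progenitor genes wholly higher (*Sox2*). 0 genes of these lists were at 0 in every library of a group. Their part in the results above was not tested.

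In the libraries labelled *Mtg8* mutant *Gria1* was again lower, *Cacng3* was lower by a small margin, and the other 8 genes overlapped with controls. limma called 0 of the 10 in either direction, with 0 of all 16132 genes called lower and 0 higher, DESeq2 and edgeR also called 0 of the 10, and 1 of the 10, *Gria1*, had an unadjusted p under 0.05. Over all genes, 393 (2.44%) were lower and 493 (3.06%) higher at that unadjusted p, and DESeq2 called 32 genes and edgeR 1. The groups did not overlap, with the labelled mutants lower, for 2 of the 10, *Gria1* and *Cacng3*, against 5.52% of all genes lower and 4.68% higher, and nothing is read from this count either.

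*Gria1* held 18945, 19133 and 23154 normalized counts in controls 1, 2 and 4 and 13801, 8937 and 13758 in labelled mutants 2, 3 and 4. Each library labelled *Mtg8* mutant was below every control, with labelled mutant 3 the lowest. The mean of the libraries labelled mutant was 59.6% of the control mean, with a log2 fold change of −0.77 ± 0.20 (SE). Within undated names the difference was −1.06 and within dated names −0.46.

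*Cacng3* held 2192, 1945 and 1870.3 normalized counts in controls 1, 2 and 4 and 1708, 1695 and 1793 in labelled mutants 2, 3 and 4. The groups stood apart by a small gap, and the mean of the libraries labelled mutant was 86.5% of the control mean. Its log2 fold change was −0.21 ± 0.18 (SE), beside −5.87 in the *Lhx6* table. Within undated and dated names it was −0.10 and −0.27.

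*Syndig1* held 1492, 1484 and 1822 normalized counts in controls 1, 2 and 4 and 1144, 1067 and 1549 in labelled mutants 2, 3 and 4. Labelled mutant 4 lay among the controls and the other 2 were below them. The log2 fold change was −0.36 ± 0.21 (SE), and the mean of the libraries labelled mutant was 78.3% of the control mean. Within undated and dated names it was −0.50 and −0.38.

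The remaining subunits overlapped. *Gria4* held 2727, 3087 and 4004 normalized counts in controls 1, 2 and 4 against 2883, 2127 and 3646 in labelled mutants 2, 3 and 4, a log2 fold change of −0.20 ± 0.23 (SE). It was 0.005 without labelled mutant 3 and −0.04 without control 4. *Gria2* held 3181, 2821 and 2356 in the controls against 3394, 1941 and 3018 in the labelled mutants, a log2 fold change of −0.03 ± 0.23. That sign was not stable: *Gria2* was at 0.04 within undated names, 0.18 within dated names and 0.21 without labelled mutant 3. The lowest library was labelled mutant 3 in both genes, as it was in *Gria1*.

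Of the other TARPs, *Cacng2* held 576, 691.1 and 595 normalized counts in *Mtg8* controls 1, 2 and 4 and 523, 522 and 798 in labelled mutants 2, 3 and 4, a log2 fold change of −0.04 ± 0.23 (SE). *Cacng4* held 1441, 1687 and 1114 in the controls and 1211, 1204 and 917 in the labelled mutants, a log2 fold change of −0.34 ± 0.22. *Cacng8* held 104, 125 and 131 in the controls and 90.6, 221 and 178 in the labelled mutants, a log2 fold change of 0.36 ± 0.34. The dated library labelled mutant was the lowest of all for *Cacng8* and the undated ones the highest, with differences of −0.33 within dated and 0.60 within undated names. *Cacng5* (12.2 to 46.0 normalized counts over the 6 libraries) and *Cacng7* (4.47 to 19.3) were low, with log2 fold changes of 0.23 ± 0.58 and 0.68 ± 0.60. *Cacng7* averaged 8.90 in controls, under the filter's cut of 10, and 14.3 in the labelled mutants. It thus passed the filter only through the group where it was higher. The direction of *Cacng5* was not stable, at −0.82 within undated names, 0.85 within dated names and −0.19 without labelled mutant 3.

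In this table MGE interneuron markers summed to 83327 to 89793 in controls and 53309 to 69403 in the libraries labelled mutant. Of the 15, 7 were wholly lower, *Sst* and *Npy* among them. Progenitor markers summed to 7251 to 8071 against 9398 to 13184, with 2 of 10 wholly higher (*Nes* and *Vim*). Pyramidal neuron markers overlapped in sum (5820.2 to 14304 against 9150.4 to 23071), with 2 of 11 wholly higher, and so did CGE markers (2867 to 4242 against 2412 to 4536), with 1 of 6 wholly higher (*Sp8*). The part of these cells in the lower *Gria1* level was not tested.

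**Figure D3:**
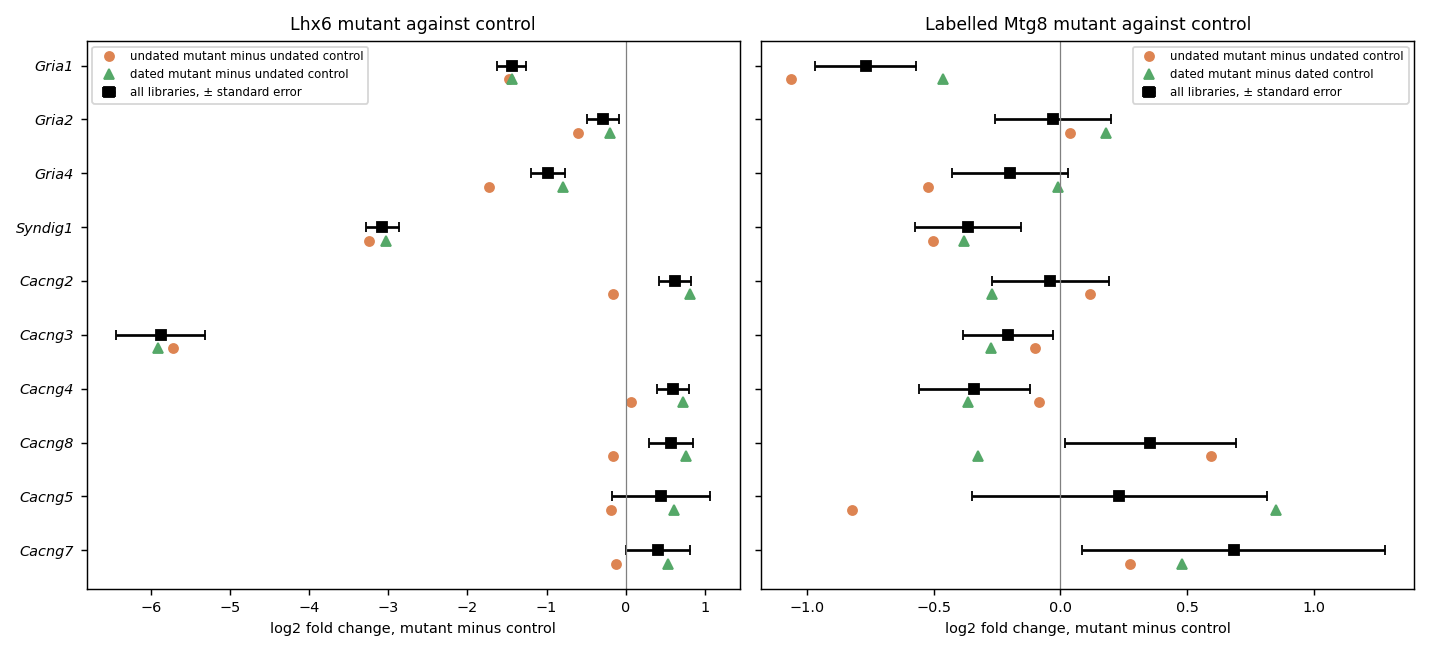
Log2 fold change of each gene, mutant minus control, in the *Lhx6* table (left) and for the libraries labelled *Mtg8* mutant (right), as squares with the standard error, with the differences by name style as circles and triangles; the axes differ in scale. *Cacng3* and *Syndig1* are at −5.87 and −3.08 on the left and at −0.21 and −0.36 on the right, and *Gria1* is below 0 in both.

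Summed per kb, the subunit genes and the TARP genes took different courses in the *Lhx6* table. The sum of *Gria1*, *Gria2* and *Gria4* came to 1827 ± 334 per kb over the 4 controls and to 806 ± 140 over the 5 mutants (± SD throughout), and the groups did not overlap. The sum of the 6 TARP genes was 1110 ± 121 in controls and 1216 ± 281 in mutants, and ranged from 762 in mutant 6 to 1533 in mutant 1, around the controls' 979 to 1273. The TARP sum was 61.8% ± 9.57 of the subunit sum in controls and 151% ± 28.9 in mutants.

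Within the TARPs the share of *Cacng3* was 29.6% ± 4.60 in *Lhx6* controls and 0.608% ± 0.400 in mutants. *Cacng4* took 39.1% ± 4.35 in controls and 55.2% ± 6.43 in mutants, and *Cacng2* took 20.2% ± 1.53 and 29.1% ± 3.59. Shares of a sum are tied to each other, so when 1 falls the rest gain. Within the subunits *Gria1* took 74.5% ± 1.95 in controls and 62.5% ± 7.64 in mutants, and *Gria2* took 10.1% ± 0.914 and 19.4% ± 5.18. These shares rest on the exon lengths, as the levels do. The subunit sums of both comparisons, and the percentages taken from them, leave out *Gria3*.

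In the *Mtg8* table the subunit sum came to 4076 ± 471 per kb over the 3 controls and to 2650 ± 616 over the 3 libraries labelled mutant, without overlap. The *Gria1* share was 82.9% ± 0.312 and 76.0% ± 1.26. The TARP sum was 1290 ± 108 and 1129 ± 29.0, and *Cacng3* took 56.0% ± 3.86 and 55.3% ± 2.22 of it. The TARP sums did not overlap either, but the gap was small, between 1166 in the lowest control and 1156 in the highest labelled mutant. The TARP sum was 32.1% ± 5.95 of the subunit sum in controls and 44.6% ± 12.96 in the labelled mutants, again without overlap. Of all single genes in this comparison, 5.52% lay wholly below the controls and 4.68% wholly above, and nothing is read from these separations.

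**Figure D4:**
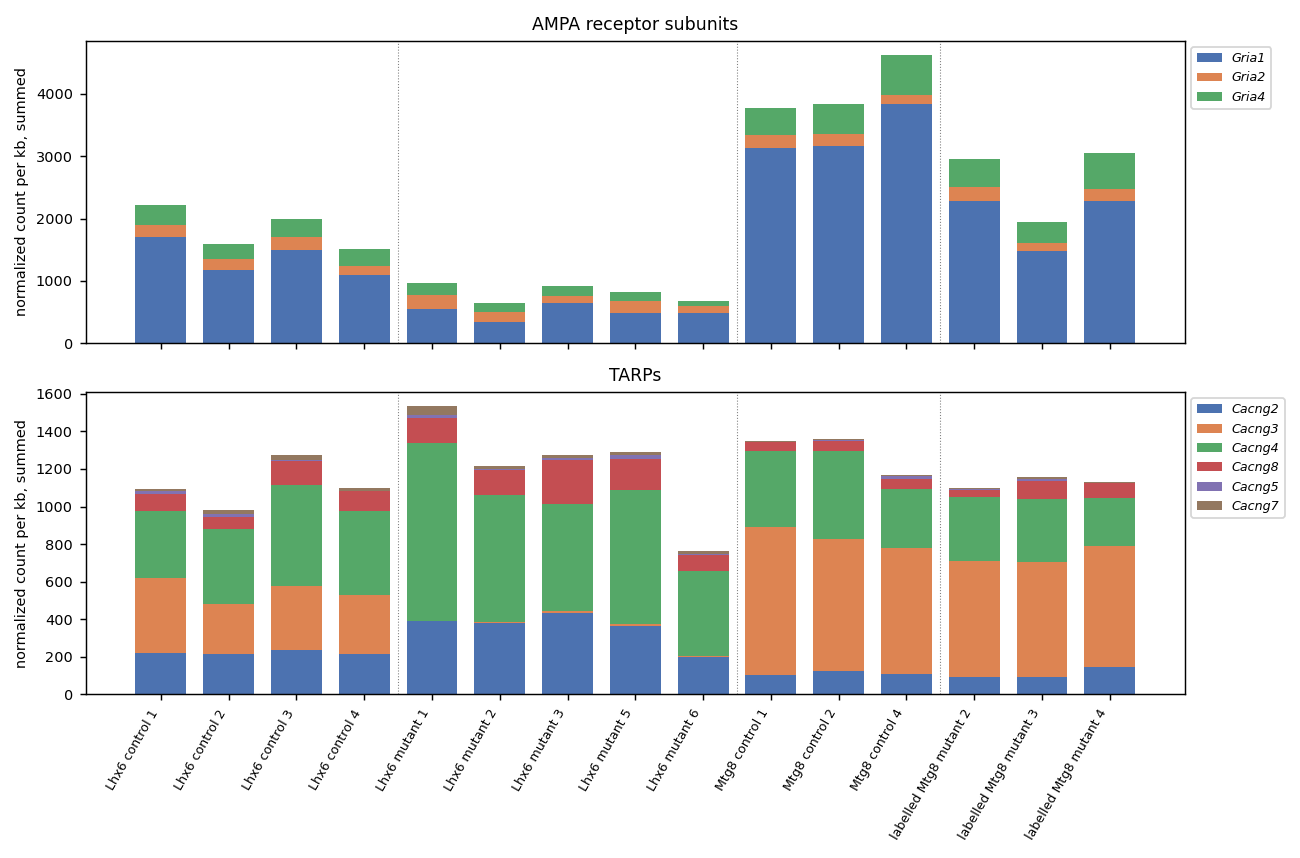
Summed normalized count per kb of the subunit genes (top) and TARP genes (bottom) in each library, stacked by gene and starting at 0, with dotted lines between groups. *Cacng3* makes up 29.6% of the TARP sum in *Lhx6* controls and 0.608% in *Lhx6* mutants, while the subunit sum goes from 1827 to 806 per kb.

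Over the 9 *Lhx6* libraries, the profile of *Cacng3* was most like those of *Syndig1* (Pearson r = 0.987 of log2 values), *Dusp26* (0.985) and *Rpp25* (0.983). *Syndig1* was most like *Gucy1a1*, a subunit of the nitric oxide receptor (0.992), *Cacng3* (0.987) and *Sst*, the somatostatin gene (0.987). Each r is a description over libraries that fall into the control and mutant groups, and so mostly follows the step between them. The mean went from 1550.3 to 79.9 normalized counts for *Gucy1a1* and from 11499 to 1388 for *Sst*.

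Genes that work with AMPA receptors but are not among the 10 formed a list of 39: other auxiliary and interacting proteins, calcium channel gamma subunits that are no TARPs, scaffold and trafficking proteins, and RNA editing enzymes. Of these, 34 were tested in the *Lhx6* comparison, limma called 1 lower and 1 higher (0.682% and 1.03% of all genes), and the median log2 fold change was 0.02 against −0.04 over all genes. The 2 calcium channel gamma subunits, *Cacng1* and *Cacng6*, were too low to test.

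The lower gene was *Olfm2*, an olfactomedin found in AMPA receptor complexes, at 874 ± 65.0 normalized counts in controls and 514 ± 71.0 in *Lhx6* mutants. The highest mutant (627) was below the lowest control (815), and the log2 fold change was −0.77 ± 0.15 (SE, adjusted p = 0.0168 by limma). It was not called when any 1 control, mutant 2 or mutant 5 was left out, with name style as a covariate, or with the replicate block. The higher gene was *Adarb2*, a catalytically inactive relative of the editing enzymes and a marker of CGE interneurons, at 31.5 ± 11.4 in controls and 637 ± 190 in mutants (log2 fold change 4.33 ± 0.31, adjusted p = 6.9e-06 by limma). It is also one of the CGE markers above. The active editing enzymes *Adarb1* (161 and 139) and *Adar* (128 and 139) were not called, at adjusted p = 0.831 and 0.787 by limma.

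The partners of the receptor that were most abundant in *Lhx6* controls were not called in *Lhx6* mutants. *Cnih2*, a cornichon that joins AMPA receptors alongside TARPs, was at 4637 ± 1156 normalized counts in controls and 3500 ± 984 in mutants (log2 fold change −0.41 ± 0.23, adjusted p = 0.473 by limma). *Olfm1* was at 2413 and 2364, with a log2 fold change of −0.03 ± 0.11. *Rab11a*, which directs recycling endosomes, and *Vps35*, of the retromer, had log2 fold changes of 0.03 ± 0.11 and −0.19 ± 0.17. DESeq2 also called the scaffold genes *Dlg1* and *Dlg2* higher, named here after their values were seen, which limma did not, at log2 fold changes of 0.87 ± 0.22 (adjusted p = 0.0804) and 0.78 ± 0.26 (adjusted p = 0.199).

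In the *Mtg8* comparison 35 of the 39 were tested and limma called 0 of them, as did DESeq2 and edgeR. At an unadjusted p under 0.05, 2 were lower and 1 was higher (2.44% and 3.06% of all genes), and the median log2 fold change was −0.08 against −0.01 over all genes. Named after their values were seen, these 3 were *Akap5*, an anchoring protein for kinases at the receptor (−0.79 ± 0.21, adjusted p = 0.769 by limma), *Frrs1l*, needed for receptor assembly (−0.67 ± 0.23, adjusted p = 0.859), and *Cnih3* (1.68 ± 0.57, adjusted p = 0.859). The abundant cornichons *Cnih1* and *Cnih4* were at −0.20 ± 0.18 and −0.03 ± 0.21. *Cnih2*, at 4637 normalized counts in *Lhx6* controls, was at only 192 ± 34.6 (SD) in *Mtg8* controls and 176 ± 90.3 in the labelled mutants. Its high level was thus seen in the *Lhx6* comparison alone, and the cause was not tested. *Adarb2* was at 38.6 and 53.1 normalized counts and *Olfm2* at 1153 and 1219.

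**Figure D5:**
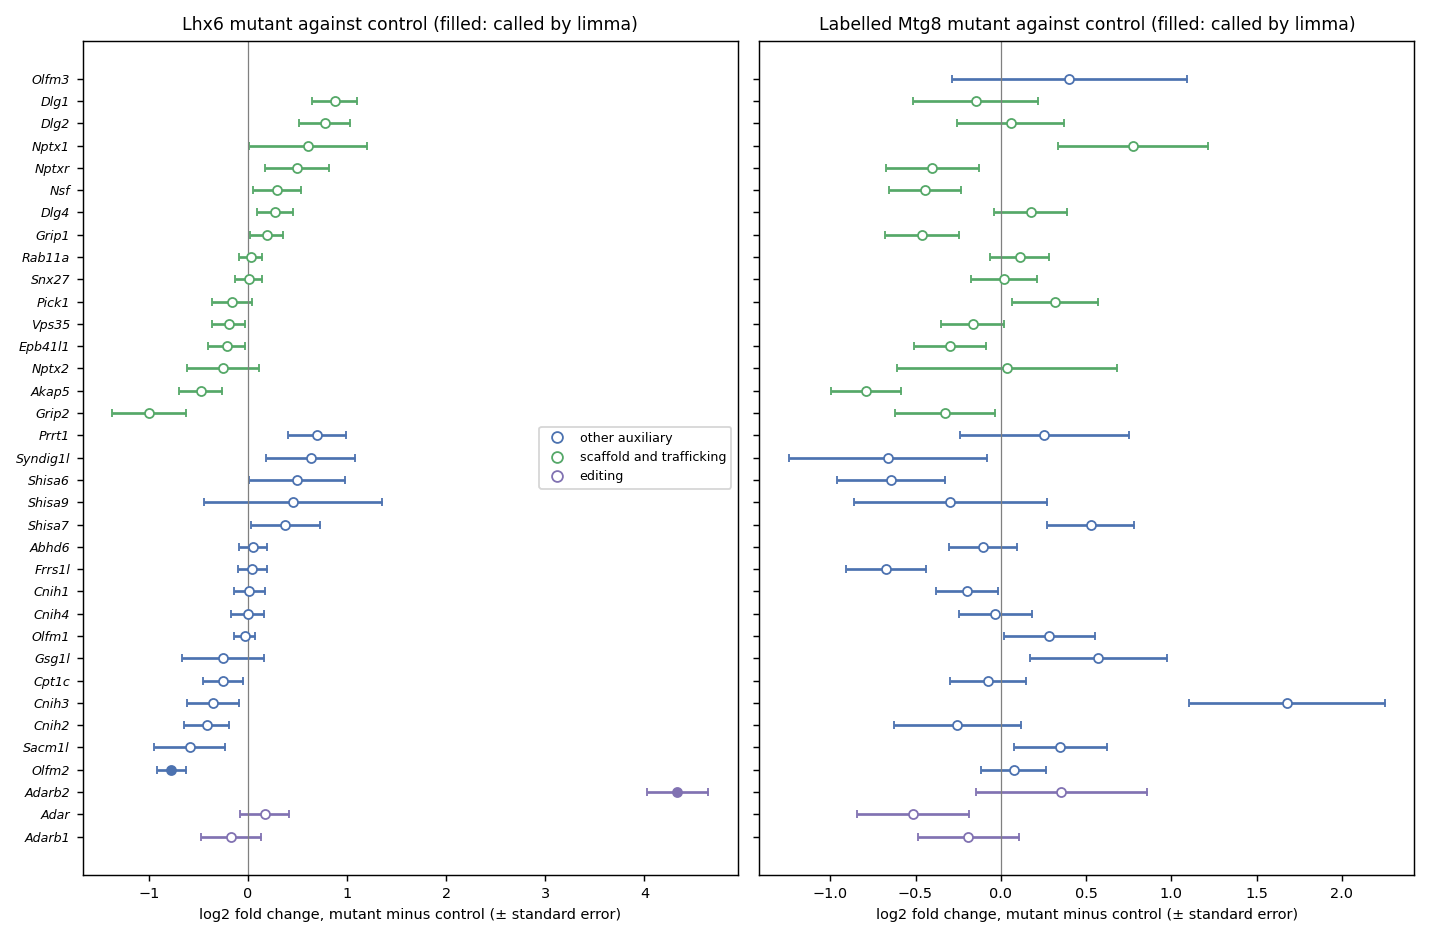
Log2 fold change with standard error of the tested genes that work with AMPA receptors, in the *Lhx6* table (left) and for the libraries labelled *Mtg8* mutant (right), coloured by kind, with filled points for genes limma called; the axes differ in scale. *Adarb2* at 4.33 and *Olfm2* at −0.77 are the 2 filled points.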

How the data were processed

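RNA-seq libraries were made from YFP+ cells of single embryos with a low-input kit and sequenced as single reads of 75 bases. Per the study's methods, the authors used fastp 0.20.1, STAR 2.7b and featureCounts 1.6.4 with GENCODE annotation of GRCm38 and filtered sex-linked genes. The signal that the authors deposited is the read count of a gene divided by its library's size factor, in a separate table per comparison. Dividing by the value of 1 read gave whole reads for 100% of values (tolerance 0.01). Depth was 12218422 to 22053032 reads, and the number of embryos limits the precision. The authors' own fold changes and p-values in these tables were not used.

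Groups came from the sample labels. The test planned for normalized values was kept: limma's moderated test (version 3.58.1 in R 4.3.3) was run on each table alone after log2 transformation with a pseudocount of 1, using limma's trend of variance with mean. Genes with a mean below 10 over all libraries of a comparison, mutants included, were left out. The test was two-sided, and calls were made at 0.05 after Benjamini-Hochberg adjustment. Results were recomputed without the filter, with a stricter one (mean of 50), with another pseudocount (0.5 or 10), after scaling by TMM or to equal totals, without the trend, with name style or the replicate number (replicate block) as a term, and with single libraries left out. Whole reads also went into edgeR 4.0.16 and into DESeq2 1.42.0. The fit was tested on simulated data. A larger pseudocount pulls the fold changes of low genes towards 0.

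The 10 genes and all lists were chosen with earlier results of these data known. All 10 are named. Of the list of partner genes, those called are named, otherwise at most the 2 of each kind with the highest control mean. Genes named outside this rule, after their values were seen, are said to be so. For *Cacng3* and *Syndig1* the 3 genes with the highest Pearson r are named. Upstream sequences are from RefSeq on GRCm38.p6. Lists of endothelial, microglial, erythroid and oligodendrocyte precursor markers had 0 genes whose groups stood apart in either table.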

Additional observations from a re-analysis of the deposited data

Results flagged for a closer look

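*Cacng7* was at 118 normalized counts in *Lhx6* mutant 1, far from the other 4 *Lhx6* mutants. The gap to the nearest of them was 0.811 of the whole range of the group, above the critical value of 0.71 for 5 libraries. Groups of 4 or 5 libraries were examined for each of the 10 genes, 20 in all, and this was the 1 that stood out, where chance alone picks about 1 in 20.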

How the results depend on the processing

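Between 3 and 5 of the 10 genes were called in the *Lhx6* table with single libraries left out (4 with all), and 0 in the *Mtg8* table under every alternative run. *Cacng3* and *Syndig1* were called under every alternative run in the *Lhx6* table. *Gria4* was not called without the trend or with the replicate block, and *Gria1* not with name style as a covariate, which rests on mutant 6 against the controls. None of the 4 genes called with all libraries changed direction under the alternatives run. *Cacng5*, not called, turned from 0.45 to −0.28 with the block. *Cacng2*, called higher by DESeq2 and without mutant 6, was at −0.16 with name style as a covariate. In the *Mtg8* table the block turned *Gria2* from −0.03 to 0.31 and *Cacng2* from −0.04 to 0.01. There it also turned *Cacng5* from 0.23 to −0.50 and *Cacng8* from 0.36 to −0.009, none of them called. Of the partner genes in the *Lhx6* table (2 called), 4 were called by DESeq2, 1 with the replicate block, 1 with name style as a covariate, and 1 to 2 with single libraries left out; where 1 was called it was *Adarb2*, and *Olfm2* was not called. In the *Mtg8* table (0 called) the replicate block gave 1, *Cnih3*. The cause of these changes was not tested.

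The replicate block rests on replicate numbers that the labels do not tie to shared litters. Same-numbered libraries deviated with correlations of −0.154, 0.00175 and 0.0717 in the *Lhx6* table and 0.138 and 0.159 in the *Mtg8* table, against means of 0.00444 and −0.0428 over the other library pairs. The *Mtg8* numbers make 2 pairs only, so pairing was not established in either table. Over all genes, calls went from 286 to 86 with the block, 57 with name style, 772 with DESeq2 and 159 to 492 with single libraries left out in the *Lhx6* table, and from 0 to 100 with the block and 32 with DESeq2 in the *Mtg8* table, where leaving out labelled mutant 2 gave 87. Depth limits *Cacng5*, *Cacng7* and, in *Lhx6* mutants, *Cacng3*, which rest on few reads.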
